A study of Homo sapiens with 25 samples.

Results

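In NCI-H2087 lung adenocarcinoma cells, 2130 H3K4me3 peaks lay at the end of a protein-coding gene and overlapped neither an H3K27ac nor an RNA polymerase II (RNAPolII) peak. These members of the class were selected from the peak lists of this line as the H3K4me3 peaks on chromosomes 1 to 22 and X within 1 kb of either annotated end of such a gene (GRCh38) with no shared base with the other marks. They made up 17.5% of the 12172 H3K4me3 peaks at gene ends, out of 22512 H3K4me3 peaks in all. Of the remaining peaks at gene ends, 8899 overlapped H3K27ac and RNAPolII, 923 overlapped H3K27ac alone and 220 overlapped RNAPolII alone. These promoters without acetylation or polymerase carried narrow, low H3K4me3 peaks. They had few peaks of the lung factors NKX2-1, FOXA1 and FOXA2, and likewise few of EP300 and c-Jun. H3K4me3 peaks of the class were the only H3K4me3 at 46.6% to 64.6% of the genes with H3K4me3 in 4 developmental and neuronal lists. Over all genes with H3K4me3 the share was 13.7%. Lists of other lineages also lay above it, with 48.0% of mesenchymal and endothelial, 10 of 20 germline and 33.3% of blood genes. Of the 1801 genes with only peaks of the class, 1677 were in none of the 4 developmental and neuronal lists. Of the 2130, 788 were acetylated in at least 1 of the other 3 lines. The remaining 63.0% were acetylated in none of them, against 1.62% of the peaks with both marks. Per line, 13.1% to 26.5% of the members were acetylated, against 76.9% to 80.1% of all H3K4me3 peaks at gene ends.

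Chromatin immunoprecipitation followed by sequencing was performed on 4 established human lung adenocarcinoma lines without treatment, HCC364, NCI-H441, NCI-H358 and NCI-H2087. In NCI-H2087 the antibodies were against NKX2-1, FOXA1, FOXA2, SOX2, c-Jun, EP300, CTCF, RNAPolII, H3K27ac, H3K4me1 and H3K4me3. In the other 3 lines they were against NKX2-1, H3K27ac and H3K4me1, so that H3K4me3 and RNAPolII are known here for NCI-H2087 only. Each combination of line and antibody was 1 library, without a replicate, and lines were the only unit over which a test could be made. Read depth is unknown, and only the number of peaks per list can be given. H3K27ac had 56384 peaks in HCC364, 51482 in NCI-H2087, 47228 in NCI-H441 and 47136 in NCI-H358, and RNAPolII had 26019 in NCI-H2087. In NCI-H2087, 7 of 9 epithelial and lung marker genes carried H3K4me3, H3K27ac and RNAPolII at an end, all but NAPSA and SFTPB. None of 9 markers of other lineages carried all 3, and of these markers the myeloid genes CD14 and SPI1 had a peak of the selected class. Some of these markers did carry an active mark. COL1A1 and CD3E had H3K27ac at an end, and the H3K4me3 at VIM and COL1A1 was in peaks that overlapped H3K27ac or RNAPolII.

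H3K4me3 is placed around transcription starts by the SET1 and MLL methyltransferase complexes, which are recruited to unmethylated CpG-rich DNA, and it can be present without transcription. H3K27ac is laid down by the acetyltransferases EP300 and CREBBP and marks active promoters and enhancers, where RNAPolII is also found. In stem cells many promoters of developmental genes carry H3K4me3 together with the Polycomb mark H3K27me3 and little polymerase. H3K27me3 was not among the antibodies, so that state could not be looked for. NKX2-1 is the lineage factor of the lung epithelium, FOXA1 and FOXA2 are forkhead pioneer factors that act with it, and CTCF is an insulator protein that anchors chromatin loops.

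The base composition is shown for 6 of these promoters, chosen after their values were seen, as examples and not as a sample of the class. The H3K4me3 folds were 128 at WDR19, 122 at TMEM108, 67.1 at ZIC2, 68.0 at INSM2, 68.2 at FN1 and 7.90 at AXL. The median of the class was 20.0 and its 90th percentile 56.5, so high folds are over-represented in these 6 promoters. Each is 300 bases, 250 before to 50 after the start of the gene, from RefSeq (GRCh38.p14), 5′ to 3′ on the gene's strand, and CG dinucleotides are in capitals. WDR19 (chr4:39182279-39182578, plus strand), a gene of ciliary transport, and TMEM108 (chr3:133038141-133038440, plus strand), a neuronal membrane protein, were among the members with the highest fold. ZIC2 (chr13:99981534-99981833, plus strand) and INSM2 (chr14:35533914-35534213, plus strand) encode zinc finger factors of neural and neuroendocrine development. FN1 (chr2:215436019-215436318, minus strand) encodes fibronectin and was acetylated in all 3 other lines. AXL (chr19:41218973-41219272, plus strand), a receptor tyrosine kinase, was acetylated in HCC364 alone and is shown as a promoter poor in CG.
WDR19: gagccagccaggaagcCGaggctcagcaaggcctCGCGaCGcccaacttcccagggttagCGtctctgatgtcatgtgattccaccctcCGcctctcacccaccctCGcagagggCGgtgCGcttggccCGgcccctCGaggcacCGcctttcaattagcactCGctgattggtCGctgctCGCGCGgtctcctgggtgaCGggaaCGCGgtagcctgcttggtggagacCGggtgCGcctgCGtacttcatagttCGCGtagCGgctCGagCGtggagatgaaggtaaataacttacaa
TMEM108: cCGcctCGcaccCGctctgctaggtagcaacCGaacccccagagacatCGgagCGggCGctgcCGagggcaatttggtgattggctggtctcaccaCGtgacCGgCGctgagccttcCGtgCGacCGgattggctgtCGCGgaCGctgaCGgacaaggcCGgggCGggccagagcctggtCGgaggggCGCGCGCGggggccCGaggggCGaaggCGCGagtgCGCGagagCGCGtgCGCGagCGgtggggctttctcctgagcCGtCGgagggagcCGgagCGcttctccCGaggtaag
ZIC2: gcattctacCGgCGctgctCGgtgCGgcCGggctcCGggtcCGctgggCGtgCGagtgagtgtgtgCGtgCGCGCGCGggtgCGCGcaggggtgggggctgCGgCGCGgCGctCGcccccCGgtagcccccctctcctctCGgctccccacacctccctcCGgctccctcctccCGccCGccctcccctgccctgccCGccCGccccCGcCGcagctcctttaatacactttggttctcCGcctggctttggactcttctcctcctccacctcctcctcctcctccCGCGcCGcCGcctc
INSM2: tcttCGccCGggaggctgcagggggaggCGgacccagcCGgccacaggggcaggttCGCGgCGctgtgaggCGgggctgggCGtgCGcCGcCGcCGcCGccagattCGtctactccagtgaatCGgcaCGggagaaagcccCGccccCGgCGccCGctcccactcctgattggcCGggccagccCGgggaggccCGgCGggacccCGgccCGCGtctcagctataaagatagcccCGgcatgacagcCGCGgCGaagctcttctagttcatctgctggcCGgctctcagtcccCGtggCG
FN1: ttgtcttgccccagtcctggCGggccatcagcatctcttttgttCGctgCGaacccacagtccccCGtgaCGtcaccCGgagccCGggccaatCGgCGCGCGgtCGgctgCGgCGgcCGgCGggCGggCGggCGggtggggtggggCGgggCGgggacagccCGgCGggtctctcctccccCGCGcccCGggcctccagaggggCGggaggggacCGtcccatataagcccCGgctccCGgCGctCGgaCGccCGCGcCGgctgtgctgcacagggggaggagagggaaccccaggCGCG
AXL: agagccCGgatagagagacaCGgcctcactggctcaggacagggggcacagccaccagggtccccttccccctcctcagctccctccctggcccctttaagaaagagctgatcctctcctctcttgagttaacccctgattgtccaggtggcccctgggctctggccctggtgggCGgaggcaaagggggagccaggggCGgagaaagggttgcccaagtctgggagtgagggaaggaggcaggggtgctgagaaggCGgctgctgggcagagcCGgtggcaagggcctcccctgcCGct
All 6 lay inside the H3K4me3 peak, as did 703 of 1367 promoters of the class. The first 5 held 28, 41, 35, 35 and 38 CG dinucleotides, and their ratio of observed to expected CG was 0.951, 1.09, 0.887, 0.876 and 0.864. AXL held 7, a ratio of 0.216.

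The H3K4me3 peaks themselves were narrower and lower than those with both marks. Their width had a median of 998 bp (95% interval of the median 963 to 1031) and ran from 272 to 4989 bp, with 403 bp at the 10th percentile and 1950 bp at the 90th. The median was 1311 bp with RNAPolII alone, 1657 bp with H3K27ac alone and 2362 bp with both. The fold of the summit over local background, a value of the authors' peak caller, had a median of 20.0 (range 2.89 to 139), against 37.0, 63.5 and 107. The classes overlapped in both measures: 10% of the members had a fold above 56.5, and 10% of the peaks with both marks had one below 51.7. Few of the members were calls near the limit of detection, since 86 of 2130 (4.04%) had a −log10 q under 10, against 0.146% of the peaks with both. The gene end was inside the peak in 1248 (58.6%), against 93.1% with both. Another H3K4me3 peak lay within 2 kb of 551 (25.9%), against 10.1%, so that part of the class lies beside a second peak.

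**Figure D1:**
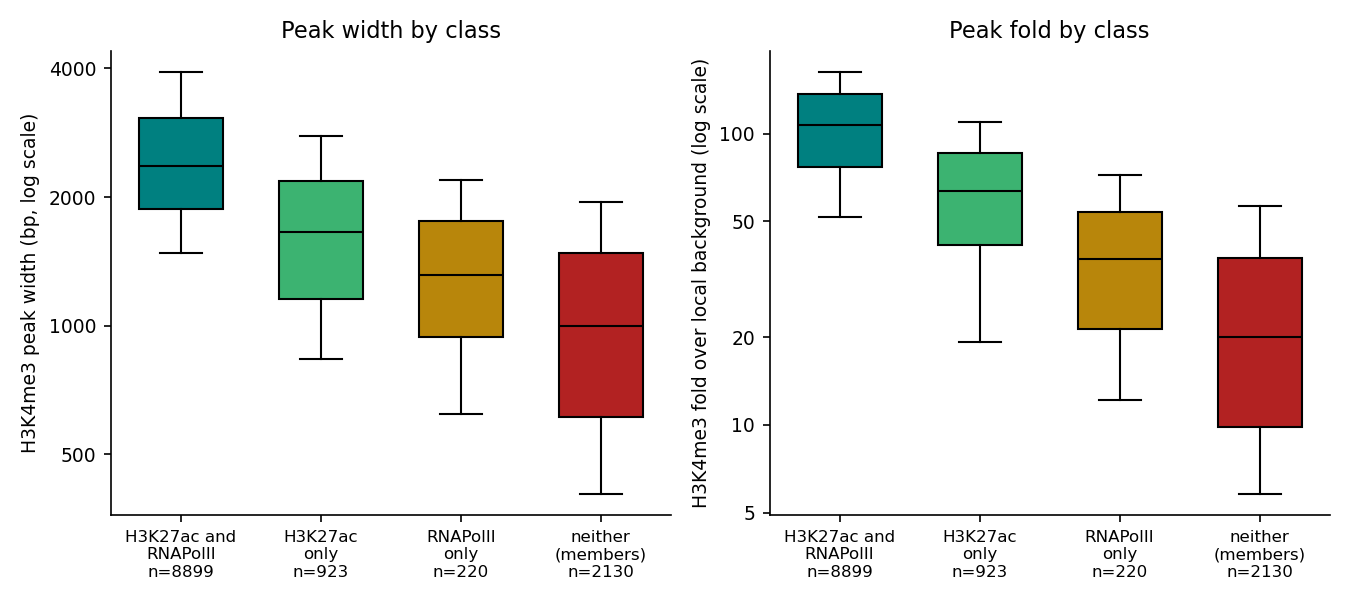
Width (left, bp) and fold over local background (right) of the H3K4me3 peaks at gene ends in NCI-H2087 by class, on log axes, with boxes from the 25th to the 75th percentile, a line at the median and whiskers at the 10th and 90th percentiles over peaks. The members have the lowest medians, 998 bp and a fold of 20.0, and the peaks with both marks the highest, 2362 bp and 107.

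Most members were far from the marks that they lacked. The nearest H3K27ac peak was a median of 23.4 kb away and the nearest RNAPolII peak 43.5 kb. Of the 2130, 168 (7.89%) had either mark within 1 kb and 265 (12.4%) had neither within 100 kb. A strand was known for many of the genes: 1531 members (71.9%) lay at a transcription start, 508 (23.8%) at an end whose strand was not known and 91 (4.27%) at a 3′ end only. PCDH9, a protocadherin of neurons, was an extreme case, with H3K27ac 2811 kb and RNAPolII 3018 kb away. The 1 kb limit was not a step in the values. SLITRK5, LPAR1, PDGFRA, DENND2A and ELFN1 were the last inside it, at 994, 998, 998, 1000 and 1000 bp from the gene end, with folds of 36.0, 14.7, 12.3, 7.33 and 5.31. CALY, MAP6, PHLDB1, ZNF777 and PRR20G were the first outside, at 1001, 1004, 1008, 1013 and 1014 bp, with folds of 15.6, 9.62, 57.5, 12.0 and 5.71.

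Counted by gene, 2114 of 19974 protein-coding genes had a member at an end. For 1801 of them, members were the only H3K4me3 at either end, which is 9.02% of all genes and 13.7% of the 13161 genes with H3K4me3. The other 313 also had a peak with a mark. The gene lists below were drawn up with earlier results of these data known, and their shares are read beside the 13.7% over all genes, without a test. Neighbouring genes of a cluster can share a peak, and a gene can be in more than 1 list.

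Genes of embryonic patterning were frequent. Of 88 homeobox genes with H3K4me3, 41 (46.6%) had members only and 10 more had a member beside a marked peak. They included ONECUT1 of liver and pancreas development, HMX2 of the inner ear, MSX2 of limb and skull, SIX3 of the forebrain, and HOXA13, HOXB2, HOXC8 and HOXD8 from all 4 HOX clusters. Their highest folds were 57.3 at IRX3, 52.0 at ONECUT1 and 49.4 at HMX2. Among 55 other developmental transcription factors with H3K4me3, 30 (54.5%) had members only. They included OSR1 (fold 105) of kidney and heart, INSM2 (68.0), ZIC2 (67.1) and GFI1 (45.4), a transcriptional repressor that acts in blood cell formation. TBR1, EOMES, NEUROG2 and OLIG1 of the nervous system, TBX4 and FOXF1 of the lung mesenchyme and TBXT of the early mesoderm were also among the 30.

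Secreted signals had the highest share of any list counted. Of 48 developmental ligands and antagonists with H3K4me3, 31 (64.6%) had members only: WNT1, WNT2, WNT2B, WNT3, WNT7A, WNT8B, WNT10A, WNT10B and WNT11 of the WNT family, FGF5, FGF9, FGF17, FGF18, FGF19 and FGF20 of the FGF family, and BMP2, BMP3, BMP4, BMP6 and BMP8A of the BMP family. The antagonists GREM1 and NOG, which bind BMPs, were in the same list. FGF19, an endocrine FGF, had the highest fold (75), followed by WNT11 (40.4) and RSPO4 (38.0), a potentiator of WNT signals. FGF18 had the lowest (4.45).

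Few neuronal genes had H3K4me3. Of 37 with H3K4me3, 22 (59.5%) had members only. No H3K4me3 was at an end of 111 of the 148 genes, against 6813 of all 19974 protein-coding genes. NRXN2, a synaptic adhesion protein, had a fold of 51.1, SLC17A7, a vesicular glutamate transporter, 43.2, SCN3B, a sodium channel subunit, 36.7 and SNAP25, of the vesicle fusion machinery, 36.0. Potassium channel genes gave 23 of 37 (62.2%), with KCNMA1 (51.5), KCNC4 (46.8) and KCNJ11 (46.5) highest. KCNA3, KCND2, KCNK4, KCNK12, KCNH1 and KCNG1 are also in the neuronal list. Protocadherin genes gave 9 of 23 (39.1%). The 5 β-cluster genes PCDHB1, PCDHB6, PCDHB8, PCDHB11 and PCDHB12 are near copies in 1 array on chromosome 5, so reads may be shared between them.

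Genes of other cell lineages made up smaller groups. The mesenchymal and endothelial list had 12 of 25 genes with H3K4me3 (48.0%). FN1 (68.2), TGFB3 (45.9), TWIST2 (26.4) and CDH11, a mesenchymal cadherin (24.7), had the highest folds. The germline list had 10 of 20, led by the meiotic recombinase DMC1 (72.3) and SYCP2 of the synaptonemal complex (57.1). The blood list had 11 of 33 (33.3%): LTB (88.7), MYB (74.0), TLR2 (60.1), IL12RB1, CD8A, HLA-DRA, CD14, CD4, LCP2, SPI1 and LYL1. The peak at SPI1, the master regulator of myeloid cells, was small, 373 bp with a fold of 7.36.

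The housekeeping, ribosomal and interferon lists held few members. Housekeeping genes had 1 of 34 (2.94%), HPRT1 on the X chromosome, interferon-induced and antigen presentation genes 1 of 47 (2.13%), GBP4. None of the 78 ribosomal protein genes with H3K4me3 had members only, and RPS20 had a member beside a marked peak. Zinc finger genes named ZNF had 30 of 451 (6.65%). The alveolar and airway list had 5 of 32 (15.6%), close to the 13.7% over all genes. These 5 were PGC (fold 55.5), LAMP3 (42.1), SFTPD (37.2), TPPP3 (8.79) and BPIFB1 (3.46), with roles in alveolar type II cells (PGC, LAMP3 and the surfactant protein SFTPD) and in ciliated or secretory airway cells (TPPP3 and BPIFB1).

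**Figure D2:**
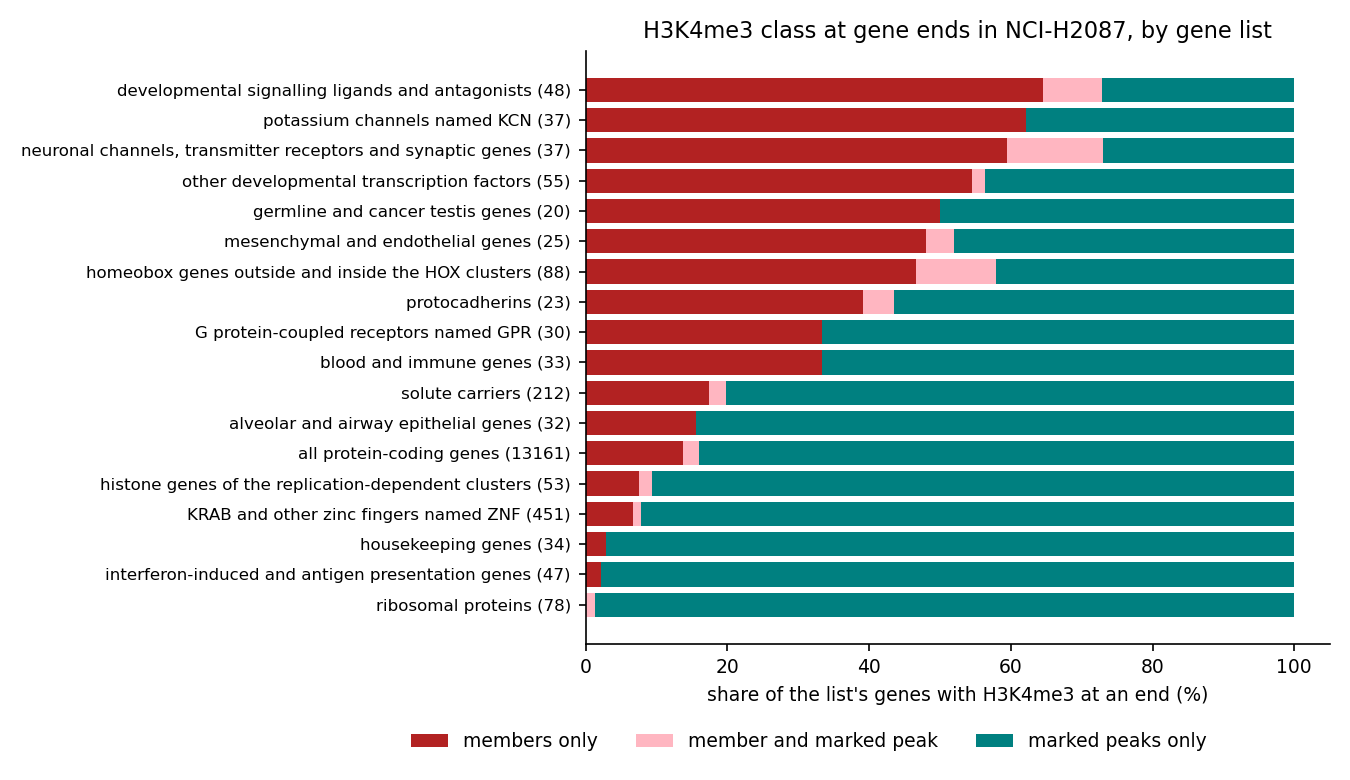
Share of genes with H3K4me3 at an end in NCI-H2087 (%, number of genes in brackets) whose peaks were members only (red), a member and a peak with a mark (pink) or peaks with a mark only (teal), for all genes and each list with at least 20 such genes. Developmental, neuronal and channel genes lie above the 13.7% of all genes. Germline, mesenchymal and endothelial, protocadherin, blood and GPR receptor genes also lie above it. Solute carrier genes and alveolar and airway genes lie slightly above it, and ribosomal, interferon, housekeeping and zinc finger genes below it.

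Transcription factor peaks were sparse at the members. Of the 2130, 1298 (60.9%, exact binomial 95% interval 58.8 to 63.0, counting error only, as for all intervals here) overlapped none of the 7 lists NKX2-1, FOXA1, FOXA2, SOX2, c-Jun, EP300 and CTCF, against 12.7% of the peaks with both marks. NKX2-1 overlapped 270 (12.7%, 11.3 to 14.2), against 76.4% with both marks and 61.3% of all H3K4me3 peaks at gene ends. FOXA1 overlapped 6.67% (34.6% with both, 28.1% of all) and FOXA2 7.18% (36.4%, 29.6%). The acetyltransferase EP300 overlapped 27 members (1.27%; 23.4% with both, 17.7% of all), c-Jun, a subunit of AP-1, 16 (0.751%; 9.63%, 7.44%) and SOX2 4 (0.188%; 1.64%, 1.30%). Whether a site is called also depends on the antibody and the depth of its library, so the lack of a peak is not the lack of the protein.

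CTCF stood apart from these. It overlapped 622 members (29.2%, 27.3 to 31.2), against 44.7% with both marks and 41.2% of all. Within a bin of H3K4me3 width the shares were close. At 1201 to 1600 bp they were 35.3% (30.6 to 40.2) in the members and 37.4% (34.0 to 40.8) with both marks, at 1601 to 2400 bp 38.8% and 39.8%, and above 2400 bp 51.4% and 51.3%. The narrower bins had 21.5% against 26.8% up to 800 bp and 27.1% against 33.8% at 801 to 1200 bp, with overlapping intervals. NKX2-1 was lower in the members in every bin, from 6.01% against 55.8% up to 800 bp to 35.1% against 86.9% above 2400 bp. CTCF without any of the other 6 factors was found at 448 members (21.0%), against 538 peaks with both marks (6.05%). None of the 7 lists was found at 1298 members (60.9%), against 1134 peaks with both marks (12.7%). The share of CTCF alone therefore depends on how sparse the other 6 factors were and is not a measure of CTCF by itself.

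In a 500 bp window on the H3K4me3 summit, which is the same for all peaks, CTCF was at 22.7% (21.0 to 24.6) of the members and 25.7% (24.8 to 26.6) of the peaks with both marks, and NKX2-1 at 9.53% and 54.7%. FOXA1 was at 4.27% and 12.7% there, FOXA2 at 4.46% and 13.7%, EP300 at 0.939% and 15.6% and c-Jun at 0.282% and 3.00%. SOX2 was at 3 members (0.141%, 0.0291 to 0.411) and 18 peaks with both marks (0.202%, 0.120 to 0.319), and these intervals overlapped. For H3K4me1, the mark of enhancers and promoter flanks, the order turned with the window. Over the whole peak it overlapped 585 members (27.5%), against 85.1% with both and 72.8% of all. At the summit it overlapped 226 members (10.6%, 9.33 to 12.0) against 3.80% (3.41 to 4.22). The peaks with both marks thus had H3K4me1 at their edges and seldom at the summit.

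**Figure D3:**
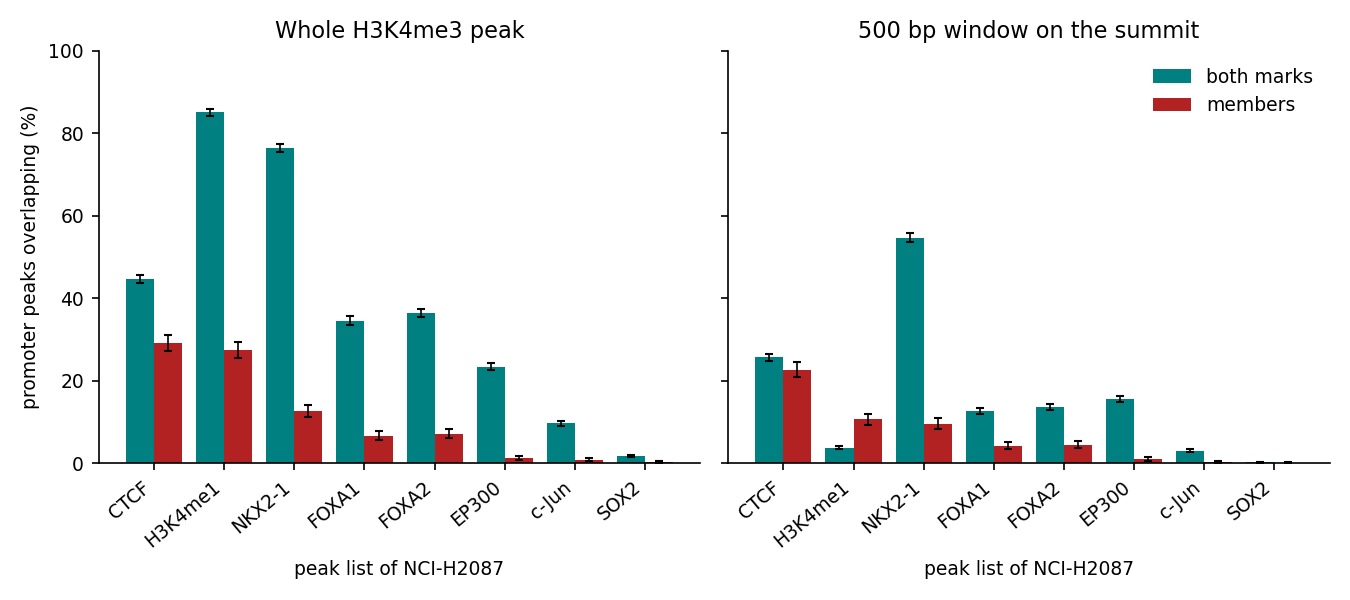
Share (%) of H3K4me3 peaks at gene ends overlapping each NCI-H2087 peak list, for members (red) and peaks with both marks (teal), over the whole peak (left) and a 500 bp window on the summit (right), with exact binomial 95% intervals. CTCF is at 22.7% and 25.7% at the summit, NKX2-1 at 9.53% and 54.7%, and H3K4me1 at 10.6% and 3.80%.

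A small set of members was richly bound: 37 (1.74%) overlapped 4 or more of the 7 lists, against 23.3% of the peaks with both marks. The WDR19 peak, whose promoter is printed above, was 2213 bp wide with an H3K4me3 fold of 128. It overlapped NKX2-1 (fold 13.4), FOXA1 (11.8), FOXA2 (12.8), c-Jun (5.75) and CTCF (20.5), with the nearest H3K27ac 134 kb away. CCDC39, a gene of ciliary assembly, had peaks of NKX2-1 (4.83), FOXA1 (3.61), FOXA2 (3.23), EP300 (4.07) and CTCF (73.9). CD14, a coreceptor for lipopolysaccharide, had FOXA1 (18.6) and FOXA2 (18.9) with weaker NKX2-1 (3.51), c-Jun (6.51) and CTCF (8.52). LYPD1, TMCC2, TOR2A, GGH and FGFR1 also overlapped 5 lists, and MYB, GMPR, CGNL1 and SLC16A14 overlapped 4. CDX2, the intestinal lineage factor, overlapped NKX2-1 (8.50), FOXA1 (43.3), FOXA2 (73.6) and CTCF (58.0) at a peak at the 3′ end of the gene.

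In each of the other 3 lines most of these promoters again had no H3K27ac peak. H3K27ac overlapped 404 members in NCI-H358 (19.0%, 17.3 to 20.7), 280 in NCI-H441 (13.1%, 11.7 to 14.7) and 564 in HCC364 (26.5%, 24.6 to 28.4). Over all H3K4me3 peaks at gene ends these shares were 78.3%, 76.9% and 80.1%, and at the peaks with both marks 94.3%, 94.0% and 94.1%. The mean over lines was 19.5% ± 6.68 (SD, n = 3 lines) for the members and 94.1% ± 0.150 for the peaks with both marks. The difference was −74.6 ± 6.65 percentage points and had this sign in 3 of 3 lines (exact two-sided sign-flip permutation, p = 0.25, the smallest that 3 lines allow, and 0.25 after Benjamini-Hochberg adjustment over 3 tests). HCC364 also had the longest H3K27ac list. With only H3K27ac peaks of −log10 q of at least 10, of which NCI-H358 had 34000, NCI-H441 36042 and HCC364 36393, the members' shares were 11.9%, 9.30% and 20.4%, in the same order.

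Windows at gene ends gave a comparison that does not depend on peak width. Genes with members only had H3K27ac within 1 kb of an end in 538 of 1801 cases in HCC364 (29.9%), 387 in NCI-H358 (21.5%) and 285 in NCI-H441 (15.8%), where all protein-coding genes had 58.7%, 56.9% and 56.2%. Genes without H3K4me3 in NCI-H2087 had 9.35%, 7.81% and 7.59%. The difference between genes with members only and genes without H3K4me3 was 14.1 ± 6.16 percentage points (SD, n = 3 lines, range 8.24 to 20.5), higher in 3 of 3 lines (the same exact permutation test, p = 0.25, adjusted p = 0.25). In NCI-H2087 itself, where the selection removed acetylation, 3.72% of the genes with members only and 7.02% of those without H3K4me3 had H3K27ac within 1 kb.

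By number of lines, 1342 members (63.0%, 60.9 to 65.1) had H3K27ac in none of the other 3, 447 (21.0%) in 1, 222 (10.4%) in 2 and 119 (5.59%, 4.65 to 6.65) in all 3. Among the peaks with both marks 88.8% had it in all 3 and 1.62% in none. HCC364 was the line alone in 262 cases, NCI-H358 in 123 and NCI-H441 in 62. A further 123 members were acetylated in NCI-H358 and HCC364, 60 in NCI-H441 and HCC364 and 39 in NCI-H358 and NCI-H441. Width and fold in NCI-H2087 rose with the number of acetylated lines, from medians of 850 bp and 14.7 with none to 1198 bp and 27.6, 1282 bp and 31.7, and 1543 bp and 46.7 with all 3. By fold, any acetylation was found at 18.2% (15.0 to 21.7) of the lowest 533 members and at 60.0% (55.7 to 64.2) of the highest 533. Because a wider peak offers more bases for an overlap, the part of width in this was not tested.

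**Figure D4:**
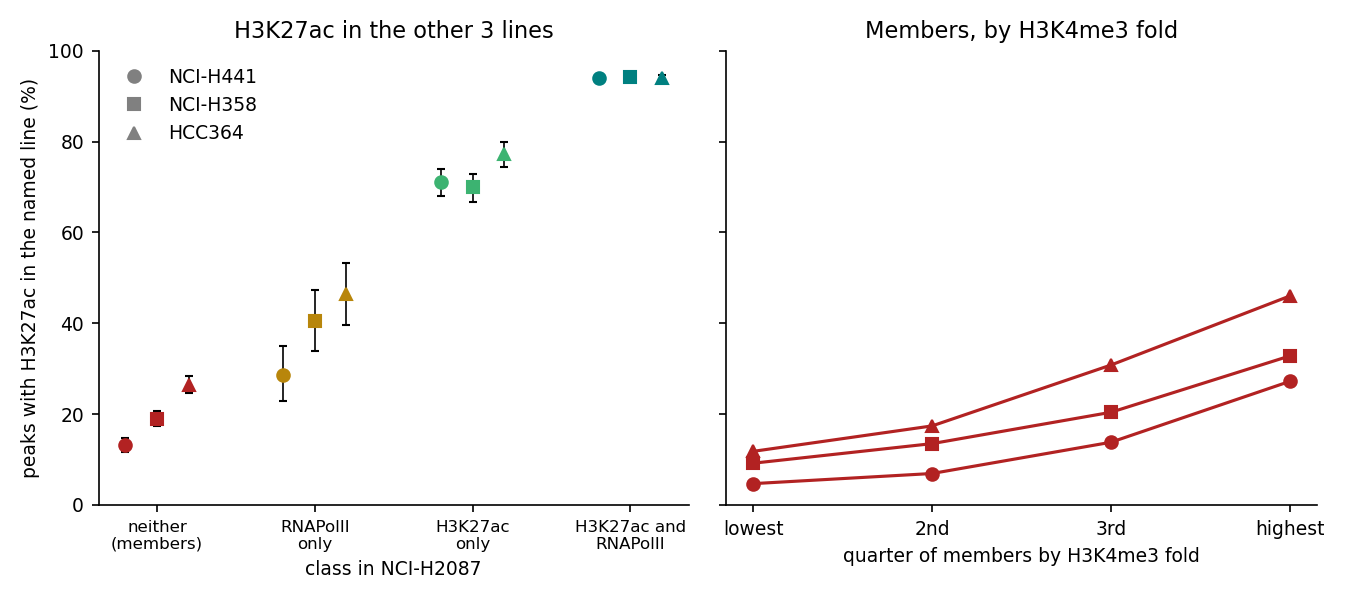
Share (%) of H3K4me3 peaks at gene ends of NCI-H2087 with H3K27ac in NCI-H441 (circle), NCI-H358 (square) and HCC364 (triangle), by class with exact binomial 95% intervals (left), and for the members in 4 groups of about equal size ordered by H3K4me3 fold (right). The members lie between 13.1% and 26.5%, the peaks with both marks between 94.0% and 94.3%, and within the members the share rises with fold in each line.

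Acetylation in the other lines was set against gene group. Of the 124 genes with members only in the homeobox, developmental factor, ligand or neuronal lists, 28 (22.6%, 15.6 to 31.0) had H3K27ac at an end in any of the 3 lines, against 723 of the 1677 genes in none of these lists (43.1%, 40.7 to 45.5). The share was lower in the listed genes in each line, at 13.7% and 31.1% in HCC364, 8.87% and 22.4% in NCI-H358 and 8.06% and 16.4% in NCI-H441. Their H3K4me3 peaks were alike in width (median 1121 and 1031 bp) and somewhat lower in fold (17.3 and 20.9). Of the 41 homeobox genes 8 were acetylated in any line, of the 30 developmental factors 6, of the 31 ligands 9 and of the 23 potassium channels 1. Zinc finger genes were acetylated in 15 of 30, mesenchymal and endothelial genes in 6 of 12, germline genes in 4 of 10, solute carriers in 13 of 37 and blood and immune genes in 3 of 11. This grouping was made after the values were seen, and the difference was not tested.

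Single members show the forms this took. ZIC2 (4052 bp, fold 67.1) and TMEM108 (1904 bp, fold 122) overlapped no H3K27ac peak in any of the 4 lines and no peak of the 7 factors. HMX2, GFI1, KCNC4 and RSPO4 likewise overlapped no H3K27ac in any line. MLLT3, a partner gene of MLL in leukaemia fusions, had the widest peak of the class (4989 bp, fold 51.1) and H3K27ac folds of 7.61 in HCC364, 3.79 in NCI-H358 and 4.50 in NCI-H441, each list having its own scale. BMP4, a signal of the BMP family (3946 bp, fold 24.3), had 6.16, 10.5 and 7.13 in the same order.

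Lengths here are those of the H3K27ac peaks that overlap a member. FN1 was acetylated over 4.10 kb in HCC364 (fold 16.6), 4.21 kb in NCI-H358 (30.2) and 4.56 kb in NCI-H441 (13.8). In NCI-H2087 its H3K4me3 peak (1834 bp, fold 68.2) lay 0.732 kb from an H3K27ac peak without overlap. IRX3 had H3K27ac over 4.23 kb in NCI-H358 (fold 36.6) and 3.12 kb in HCC364 (21.3) and over 0.646 kb in NCI-H441 (7.67). CDH11 was acetylated over 9.08 kb in HCC364 (18.3), 0.279 kb in NCI-H358 (3.55) and 3.81 kb in NCI-H441 (9.87). GAS2L1, a linker of actin and microtubules, combined one of the highest H3K4me3 folds (125) with H3K27ac in all 3 lines (24.4 in HCC364, 11.0 in NCI-H358 and 10.1 in NCI-H441). ANGPTL4, an inhibitor of lipoprotein lipase, was strongest in NCI-H441 by length, with 3.85 kb there, 3.37 kb in NCI-H358 and 1.03 kb in HCC364. Its NKX2-1 fold in NCI-H441 was 27, and no NKX2-1 peak overlapped it in the other lines. ICAM5, AFAP1, CXXC5, AK3 and the replication-dependent histone gene H4C11 were also acetylated in all 3.

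Members acetylated in 1 line alone were ranked by their H3K27ac fold in that line, and the highest are named here. In NCI-H358 these were CYP27C1, a retinoid-modifying cytochrome P450 (68.0 over 5.13 kb), WNT9A (54.5 over 19.0 kb) and ARHGAP39 (32.8 over 1.93 kb). BMPR1B, a BMP receptor (28.9), MAF, a bZIP transcription factor (28.1), and RBM38 (23.7) followed. In NCI-H441 they were AHCY, the S-adenosylhomocysteine hydrolase (55.1 over 5.45 kb), QPRT of NAD synthesis (41.7), TMEM171 (21.7), TFPI2, a protease inhibitor (21.0), CDC42EP5 (17.2) and TMEM200B (15.9). In HCC364 they were FGFR1 (28.4 over 4.30 kb), CD70, a TNF family ligand (26.9 over 6.52 kb), and RRAD, a small GTPase (26.7). PBX4 (24.4 over 7.50 kb), MEX3B (24.2) and LIX1L (21.6) followed. AXL was acetylated over 15.8 kb in HCC364 (fold 19.9), and its H3K4me3 peak in NCI-H2087 was 753 bp with a fold of 7.90. Some of these had an H3K27ac peak of NCI-H2087 close by: AHCY at 0.171 kb, BMPR1B at 0.60 kb, CDC42EP5 at 0.648 kb, RRAD at 0.784 kb and MAF at 0.90 kb. For TFPI2 it was 101 kb away and for TMEM171 82.0 kb.

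The share with NKX2-1 was higher at the members acetylated in the same line. Over all members NKX2-1 overlapped 499 in HCC364 (23.4%), 360 in NCI-H358 (16.9%) and 269 in NCI-H441 (12.6%), against 66.9%, 57.4% and 58.7% of all H3K4me3 peaks at gene ends. Among members with H3K27ac in NCI-H358, 190 of 404 (47.0%) had NKX2-1 there, against 170 of 1726 (9.85%) without. In NCI-H441 the shares were 40.7% and 8.38%, and in HCC364 54.8% and 12.1%. The mean over lines was 47.5% ± 7.05 with and 10.1% ± 1.89 without H3K27ac. The difference of 37.4 ± 5.16 percentage points (SD, n = 3 lines) had this sign in 3 of 3 lines (exact two-sided sign-flip permutation, p = 0.25, adjusted p = 0.25). This comparison was added after the data were seen. Acetylated members also had wider H3K4me3 peaks, and the part of width in the difference was not tested.

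Members acetylated in a line were split by NKX2-1 in that line and in NCI-H2087. NKX2-1 in that line without a peak in NCI-H2087 was at 202 of 564 in HCC364 (35.8%), 115 of 404 in NCI-H358 (28.5%) and 67 of 280 in NCI-H441 (23.9%). NKX2-1 in NCI-H2087 alone was at 4, 10 and 5 of them. The largest group had it in neither line, at 251 (44.5%), 204 (50.5%) and 161 (57.5%). This split was not made for all H3K4me3 peaks at gene ends. In NCI-H2087 the members had few NKX2-1 peaks from the outset (12.7%, against 61.3% of all), so the counts are a description only. PBX4 and LIX1L had NKX2-1 in HCC364 and in NCI-H2087, while CD70 had it in HCC364 (7.81) and not in NCI-H2087. H3K4me1 overlapped 17.8% of the members in HCC364, 26.9% in NCI-H358 and 25.9% in NCI-H441, against 52.9%, 70.4% and 77.6% of all H3K4me3 peaks at gene ends. It too was more frequent at members acetylated in the line, at 30.0% against 13.4% in HCC364, 44.3% against 22.9% in NCI-H358 and 69.6% against 19.3% in NCI-H441.

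The promoters were CpG-rich in most cases. Of 1367 genes with a start in this class and a RefSeq promoter sequence, which can lie outside the peak, 1009 (73.8%, 71.4 to 76.1) had a GC content of at least 50% and a ratio of observed to expected CG of at least 0.6. The share was 84.6% with both marks, 24.0% at starts without H3K4me3 and 63.1% over all 15812 promoters. For the 703 promoters that lay wholly inside the H3K4me3 peak it was 85.6% (82.8 to 88.1), against 88.2% (87.4 to 88.9) of 7486 with both. By number of acetylated lines the share was 75.3% with none, 72.5%, 69.1% and 72.1% with all 3, and the intervals overlapped.

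**Figure D5:**
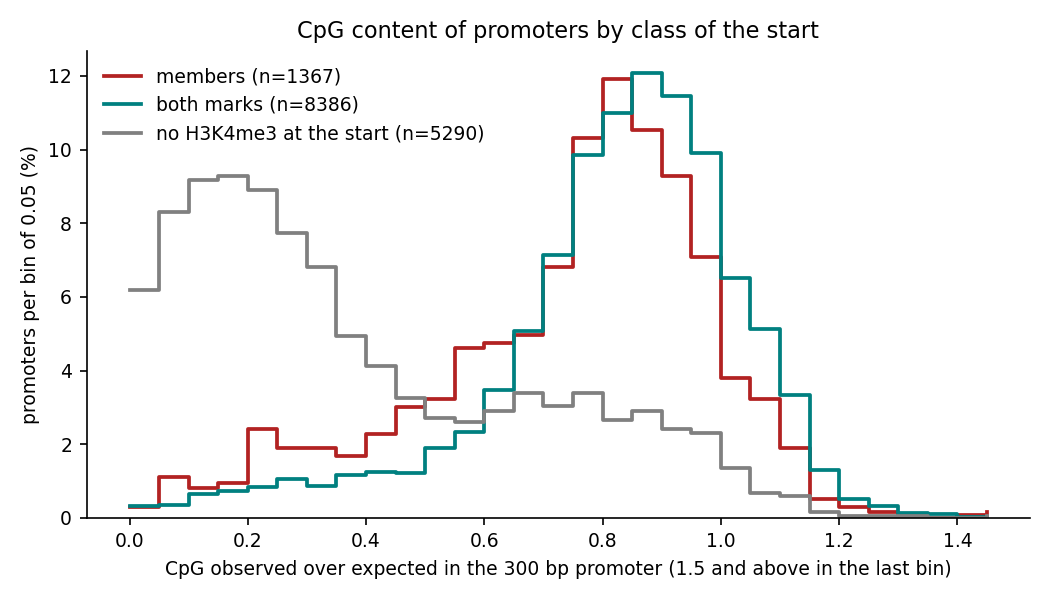
Ratio of observed to expected CG (x axis) in 300 bp RefSeq promoters against the share of promoters per bin of 0.05 (y axis, %), for starts of the class (red), with both marks (teal) and without H3K4me3 (grey). Members and marked promoters peak in the same range, with medians of 0.795 and 0.853, and starts without H3K4me3 have a median of 0.303.

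Some short motifs of general promoter factors differed in share between the members and promoters with both marks. Each motif was searched as exact letters on both strands of the 300 bases. No motif contains another, but the ETS and YY1 motifs can share the letters AAG. The ETS motif CCGGAAG was in 61 of 1367 (4.46%, 3.43 to 5.70) against 23.0% (22.1 to 23.9) with both and 14.1% of all promoters. Within promoters inside the peak it was in 4.69% against 24.5%. The YY1 motif AAGATGG was in 2.78% against 8.38% (all 6.36%), the NRF1 motif GCGCATG in 4.61% against 8.56% (5.88%) and the CCAAT box in 30.1% against 38.1% (36.4%). The GC box GGGCGG was in 73.2% (70.7 to 75.5) against 71.7% (70.7 to 72.6), with overlapping intervals, and in 58.3% of all promoters. Within promoters inside the peak it was in 81.9% against 73.2%. The intervals overlapped for the TATA box TATAAA (6.14% and 5.39%, all 9.75%), the NKX2 motif CACTTGA (1.61% and 1.66%, 2.12%), the forkhead motif TGTTTAC (1.76% and 2.27%, 2.68%), the REST motif GGACAGC (7.61% and 6.49%, 6.88%) and the AP-1 motif TGANTCA (3.07% and 4.38%, 5.70%). A match is a string of letters and not a bound site.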

How the data were processed

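Peak lists of 20 libraries were analysed. The 5 input libraries were not analysed here. The build was hg38 (GRCh38), and MACS2 (2.1.1 and 2.2.7.1), Bowtie2 2.2.9, Trimmomatic 0.36, bedtools and SAMtools 1.9 are named, without roles, per the submitters' processing notes. No source used here says which MACS2 version made which list. The deposited lists are narrowPeak files, 1 per library. They give the fold over local background, a linear ratio, and the caller's −log10 q and −log10 p, as written by the authors. The lowest −log10 q was 3.00.

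Peaks on chromosomes 1 to 22 and X were used. Lists were compared by overlap of at least 1 bp (Python 3.11.15, numpy 2.4.6, pandas 2.3.3, scipy 1.17.1). Gene ends came from RefSeq (GRCh38.p14), strand and promoters from its promoter table for 15812 of 19974 genes. Lines were compared by an exact sign-flip permutation, and shares have Clopper-Pearson intervals. The overlap and test code was tested on simulated data.

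The members, the 11 gene lists, the 9 gene families by symbol and the tests were chosen with earlier results of these data known. Named genes were the 12 members highest in fold, in width, in number of factors and in H3K27ac length over 3 lines, the 6 with the highest H3K27ac fold in 1 line alone, the 5 nearest the 1 kb limit on either side, and up to 4 per list by fold. AXL and other list members were named after their values were seen.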

Additional observations from a re-analysis of the deposited data

How the results depend on the processing

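Under the alternatives tried, the number of members ranged from 1531 (annotated starts only) to 2761, and neither H3K27ac difference over lines changed sign. For the other results the restriction to annotated starts was chosen after seeing the data. The median width was 909 bp with gene ends within 5 kb and 1134 bp without members that had another H3K4me3 peak within 2 kb. The NKX2-1 share was 15.3% and 14.3% under these settings, 9.53% in a 500 bp window on the summit and 8.54% with NKX2-1 peaks of −log10 q of at least 10. The CTCF share was 32.4%, 32.5% and, at the summit, 22.7%. The H3K4me1 share was 10.6% at the summit, where it was above that of peaks with both marks (3.80%) and not below it, and 8.08% with −log10 q of at least 10. Members with H3K27ac in none of the other 3 lines were 66.0% at the summit and 71.9% with −log10 q of at least 10, and those with it in all 3 were 3.05% under the latter. Leaving out 1 line at a time, the mean acetylated share ranged from 16.1% to 22.7%, the difference from peaks with both marks from −78.1 to −71.5 percentage points and that from genes without H3K4me3 from 11.0 to 17.1 percentage points. No line and antibody had replicate libraries that could be paired, and the tests over lines were paired by line, on the difference within each line. Limits: H3K4me3 and RNAPolII were profiled in 1 line, read depth is unknown, and the class rests on the peak calls of 3 libraries.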

Other observations

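The share of H3K4me3 peaks at gene ends that lacked both marks differed between chromosomes. It was 26.4% on X (108 of 409, exact binomial 95% interval 22.2 to 31.0), 26.3% on chromosome 18, 24.9% on chromosome 13 and 24.5% on chromosome 22, and 12.8% (10.4 to 15.7) on chromosome 11 and 13.8% on chromosome 12.

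Transporter and receptor genes gave intermediate values. Solute carriers had members only at 37 of 212 genes with H3K4me3 (17.5%), led by SLC25A20, the mitochondrial carnitine carrier (fold 84.8), and SLC16A9 (62.3). Receptors named GPR had 10 of 30 (33.3%), led by GPR137B (64.3) and GPR160 (54.1). Of the olfactory receptors, 387 of 392 had no H3K4me3 at an end, against 6813 of all 19974 protein-coding genes. A long noncoding RNA had an end within 1 kb of 390 members (18.3%), against 24.5% of the peaks with both marks.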
